A study of Mus musculus with 6 samples.

Results

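Endothelium holds blood fluid, and the transcripts described here belong to 9 genes on both sides of that task: Vwf, F8, Thbd, Procr, Tfpi, Plat, Plau, F3 and Adamts13. They were given by name and found by matching Ensembl identifiers to mouse symbols, and all 9 of the 9 had a row among the 24520 genes of the deposited tables. The RNA came from lung endothelial cells of mice, isolated by fluorescence-activated sorting, and was read in 6 libraries: 3 carry the label WT, for wild type, and 3 the label KO, for a knockout of Dnmt3a, an enzyme that places new methyl groups on DNA. The labels give no strain, age, treatment or sorting gate, and they do not name the deleted exons, the Cre driver or any agent shared by both labels, so none of these can be stated. They also do not say that the 3 libraries of a label came from different animals, and p-values therefore reflect only the variation among the 6 samples, part of which may be technical. Wherever 3 values are given for a label, they follow the order of replicates 1, 2 and 3.

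Clotting starts when tissue factor, encoded by F3, meets blood and activates the coagulation proteases, and von Willebrand factor, encoded by Vwf, tethers platelets and carries coagulation factor VIII, encoded by F8. Endothelial cells store von Willebrand factor in rod-shaped granules, the Weibel-Palade bodies, and the protease ADAMTS13 trims it once it is released. Thrombomodulin (Thbd) and the endothelial protein C receptor (Procr) turn thrombin into an activator of protein C, an anticoagulant, TFPI blocks the tissue factor complex, and the tissue and urokinase plasminogen activators (Plat, Plau) start the breakdown of fibrin. In the lung, thrombomodulin is abundant on capillaries, whereas von Willebrand factor is known mainly from veins, arteries and larger vessels.

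Libraries were made from total RNA of the sorted cells with an amplifying low-input kit. They held 28136194 to 39999172 estimated counts. Pecam1, Cdh5 and 5 other endothelial markers together stood at 9771 to 11760 CPM (counts scaled to a common library size, with TMM factors) in the 6 libraries. Dnmt3a itself went against the labels, with 1079 to 1235 counts under the WT label and 4750 to 5090 under the KO label (a log2 difference of 2.22, SE 0.11, edgeR adjusted p = 0.00157), and a sum over a whole gene does not show which exons were read. For that reason groups are named by label throughout and every direction is that of the libraries labelled KO. Xist and 4 Y-linked genes showed replicate 1 of each label as female and replicates 2 and 3 as male. F8 is an X-linked gene, and the part of sex in its values was not tested.

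DNMT3A acts on cytosines that precede a guanine (CpG), so the CpG content of the members' start regions is shown before their values; methylation was not measured here. RefSeq start windows of 300 bases, from 250 before to 50 after the start on build GRCm38.p6, were matched for Adamts13, F3, F8, Procr and Tfpi, 6 windows in all because Tfpi had 2 starts. Vwf, Thbd, Plat and Plau were not matched. F3 carried 32 CpG, and 91.4% of 32851 windows had at most that many, Procr 13, the Tfpi windows 5 and 3, and F8 and Adamts13 2 each, against a median of 7 over all windows. The windows of F3 (plus strand, chr3:121723287-121723586), Procr (plus strand, chr2:155750967-155751266) and F8 (minus strand, chrX:75379992-75380291) span that range (that of F8 lies inside the span of the gene given below) and are printed 5′ to 3′ with each CpG in capitals.
F3: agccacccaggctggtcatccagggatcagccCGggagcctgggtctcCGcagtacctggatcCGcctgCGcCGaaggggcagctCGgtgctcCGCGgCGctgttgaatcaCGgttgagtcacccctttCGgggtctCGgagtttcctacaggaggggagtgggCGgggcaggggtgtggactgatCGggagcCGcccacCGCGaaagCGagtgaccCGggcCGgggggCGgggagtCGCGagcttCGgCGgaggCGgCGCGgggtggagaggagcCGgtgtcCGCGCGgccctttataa
Procr: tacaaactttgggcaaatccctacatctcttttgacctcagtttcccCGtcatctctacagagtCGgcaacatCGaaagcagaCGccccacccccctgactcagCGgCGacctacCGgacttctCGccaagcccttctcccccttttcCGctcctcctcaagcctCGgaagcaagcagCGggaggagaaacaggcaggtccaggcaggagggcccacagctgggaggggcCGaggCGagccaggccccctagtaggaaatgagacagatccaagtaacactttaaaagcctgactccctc
F8: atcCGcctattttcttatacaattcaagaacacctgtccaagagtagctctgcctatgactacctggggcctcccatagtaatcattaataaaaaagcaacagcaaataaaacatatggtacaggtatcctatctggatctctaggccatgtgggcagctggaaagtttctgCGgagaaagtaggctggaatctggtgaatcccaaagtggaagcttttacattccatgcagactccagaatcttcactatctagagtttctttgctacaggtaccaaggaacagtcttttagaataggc

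The capitals are dense in the F3 window, sparser in the Procr window and present at only 2 places in the F8 window. TGAGTCA, the letters bound by AP-1 factors, was found on either strand once in the F3 window and once in the Procr window, and 5.2% of all windows hold it. GGGCGG, the GC box, occurred 3 times in the F3 window and once each in the Adamts13 window and both Tfpi windows (35.7% of all windows hold it, and each match contains a CpG). AGATAA, bound by factors of the blood and endothelial zinc finger family that includes Gata2, occurred once, in the Tfpi window that starts at 84474125 (11.2% of all windows). The ETS letters CCGGAAG occurred in none of the 6 (8.86% of all windows). Both strands were searched for each motif, and a match is a description of letters only.

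The members covered a wide range of abundance. Per transcript length, in TPM (transcript abundance scaled to a common total; mean over the 6 libraries), Thbd was the most abundant at 1229 and ranked 93rd of 24520 genes, followed by Plat at 199, Vwf at 148, Tfpi at 39.0, Procr at 20.0, Adamts13 at 6.74, F3 at 3.71, Plau at 1.15 and F8 at 0.974. In the libraries labelled WT each neighbour in this order was separated from the next in TPM without overlap down to F3, whereas F3, Plau and F8 overlapped. In the libraries labelled KO only Thbd stood clear above Vwf and Plat above Tfpi. Vwf and Plat overlapped there, at 153 to 250 and 154 to 200 TPM, as did Tfpi and Procr, Procr and Adamts13, Adamts13 and F3, F3 and Plau, and Plau and F8.

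The comparison asks whether these transcripts differ between the libraries labelled KO and those labelled WT. Since Dnmt3a RNA was higher under the KO label, it is not read as a comparison of loss with presence of Dnmt3a. Vwf was the one member whose libraries did not overlap in CPM between the labels, being about double in those labelled KO, while Thbd, Procr, F8 and F3 had positive and Tfpi, Plat, Plau and Adamts13 negative log2 fold changes with intervals that include 0. No member passed edgeR's quasi-likelihood test at an adjusted p of 0.05, where 0.0341% of all 14667 tested genes passed. With 1 of 9 members, Vwf, under an unadjusted p of 0.05 (12.6% of tested genes) and 1 of 9 not overlapping (20.3% of tested genes), the members' shares were not above those of all tested genes. DESeq2, run as an alternative, called 1 member, Vwf (2.78% of the genes it tested). The median log2 fold change was 0.11 over the members and 0.009 over all tested genes, and all 9 members passed the filter on low counts.

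**Figure D1:**
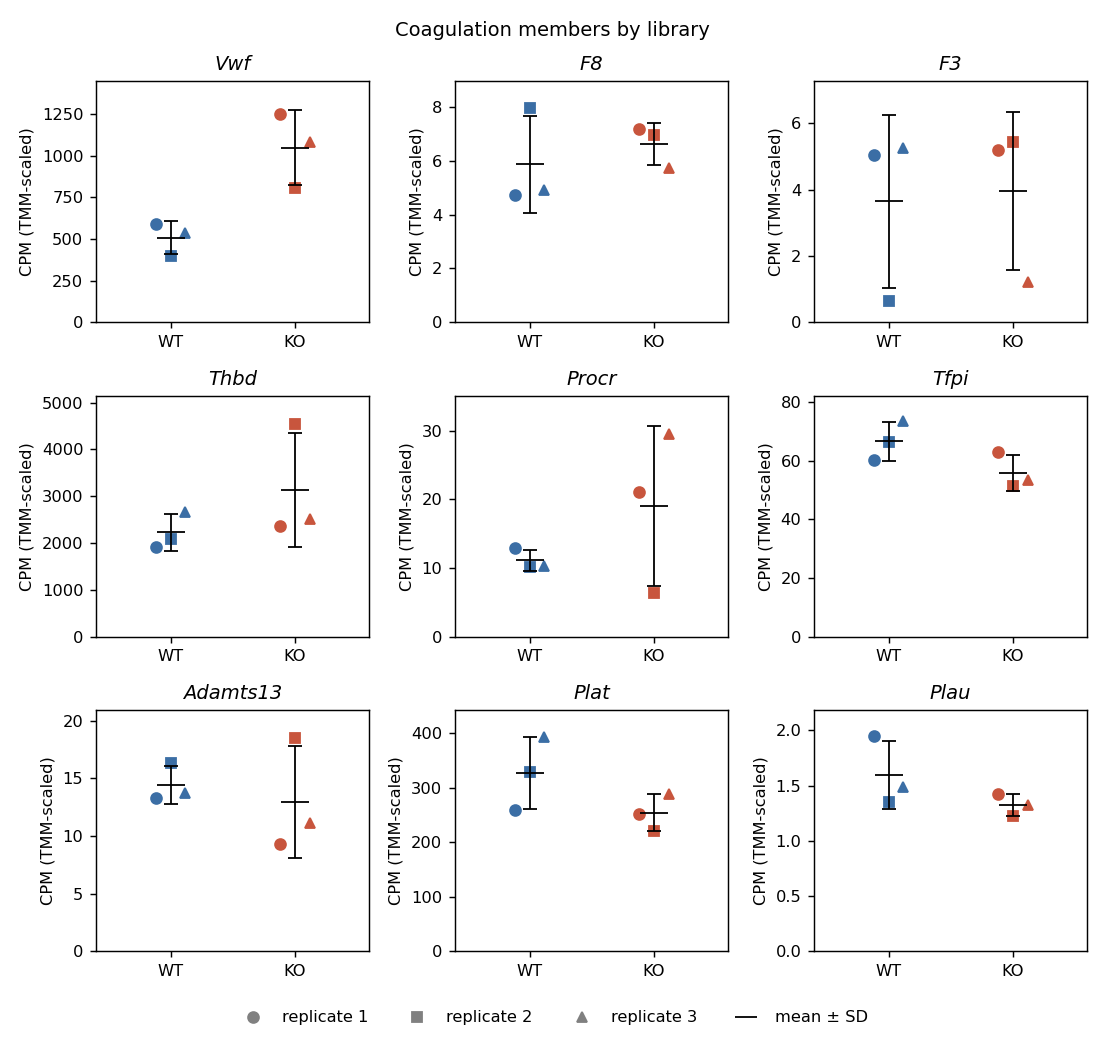
Level of each member in CPM (vertical axes, scaled by TMM, from 0) in the 3 libraries labelled WT (blue) and the 3 labelled KO (orange), with marker shape giving the replicate number and black bars the mean ± SD. Vwf is separated between the labels, KO replicate 2 is the highest for Thbd and the lowest for Procr, and WT replicate 2 and KO replicate 3 are low for F3.

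Among the procoagulant members, Vwf (ENSMUSG00000001930, mm10 chromosome 6, 125546774 to 125686679, plus strand) was covered by 19357, 11829 and 20210 estimated counts under the WT label and 37104, 24498 and 32063 under the KO label. Scaled, these were 589, 401 and 536 CPM for the WT label and 1255, 809 and 1086 CPM for the KO label. Every library labelled KO lay above every library labelled WT, and replicate 2 was the lowest under both labels. The means were 509 ± 97.2 and 1050 ± 225 CPM (SD, n = 3 each), which is a log2 difference of 1.05 (SE 0.21, 95% interval 0.56 to 1.54, edgeR adjusted p = 0.24; range over the alternatives 0.000281 by DESeq2 to 0.608). In TPM, which accounts for length, the means were 92.7 ± 17.5 and 203 ± 48.4. When each library was left out in turn, the log2 fold change of Vwf ran from 0.89 without KO replicate 1 to 1.20 without KO replicate 2, with adjusted p from 0.222 to 0.608. In the 4 male libraries it was 1.01 (edgeR adjusted p = 0.363).

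F8 (ENSMUSG00000031196, X chromosome, 75172715 to 75382615, minus strand), the cofactor that von Willebrand factor carries, was rare in these cells. It had 155, 235 and 186 counts under the WT label and 212, 211 and 169 under the KO label, or 4.72, 7.96 and 4.93 against 7.17, 6.97 and 5.72 CPM. The highest and the lowest library both carried the WT label, so the groups overlapped. The log2 fold change was 0.17 (SE 0.29, 95% interval -0.49 to 0.84, edgeR adjusted p = 0.82). It was 0.45 without WT replicate 2 and -0.04 in the male libraries alone. The start of F8 overlaps the start of Fundc2, a gene on the opposite strand with 2223 to 3037 counts per library, and strand-specific counting is stated nowhere, so reads of the shared stretch cannot be told apart.

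F3 (ENSMUSG00000028128, chromosome 3, 121723537 to 121735048, plus strand), the tissue factor gene, varied more within a label than any other member. Its counts were 166, 19 and 198 under the WT label and 154, 165 and 36 under the KO label. In CPM these were 5.05, 0.643 and 5.25 against 5.21, 5.45 and 1.22. Each label thus held a pair of libraries near 5 CPM and 1 low library, WT replicate 2 and KO replicate 3. The log2 fold change was 0.12 with a wide error (SE 0.81, 95% interval -1.78 to 2.01, edgeR adjusted p = 0.967), and it was -0.38 without WT replicate 2 and 0.54 without KO replicate 3. The within-label SD of F3 on the log2 scale was 1.45, at percentile 97.7 among genes averaging 50 or more counts, followed by Procr at 0.82 (percentile 94.0), against a median of 0.226 over those genes.

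Smooth muscle, pericyte and alveolar type 2 markers were low in the same libraries as F3, and airway markers only in part. The summed CPM of 6 smooth muscle and pericyte markers was 315, 102 and 441 under the WT label and 541, 484 and 112 under the KO label, so the 2 libraries low in F3 were the 2 lowest here. Acta2, smooth muscle actin, was at 28.4 CPM in WT replicate 2 and 36.3 CPM in KO replicate 3 and at 148 to 234 CPM in the other libraries. The same 2 libraries were the lowest for 5 alveolar type 2 epithelial markers, at 197 CPM in WT replicate 2 and 630 CPM in KO replicate 3 against 2159 to 8960 CPM elsewhere. Across the 6 libraries Pearson's r on the log2 scale was 0.96 between F3 and the smooth muscle and pericyte sum, 0.93 with the alveolar type 2 sum, 0.87 with the alveolar type 1 sum, 0.77 with the airway epithelium sum and 0.44 with the fibroblast sum, as a description of points that share library, depth and dissection and in which 2 libraries set the relation. Ager made up the larger part of the alveolar type 1 sum in every library, and the other alveolar type 1 markers did not share its pattern. Hopx was at 6.74 to 8.22 CPM under the WT label and 9.30, 21.6 and 17.0 CPM under the KO label. Rtkn2 was highest in WT replicate 2, at 1.42 CPM, and Aqp5 was at 1.35 CPM in KO replicate 3. The airway epithelium sum was lowest in WT replicate 2, at 12.3 CPM, but stood at 377 CPM in KO replicate 3, above the 225 CPM of KO replicate 1. None of the smooth muscle, pericyte or alveolar type 2 markers was at 0 in any library. The part of these cells in the F3 values was not tested, and in bulk samples fewer cells of a type and less RNA per cell cannot be told apart.

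**Figure D2:**
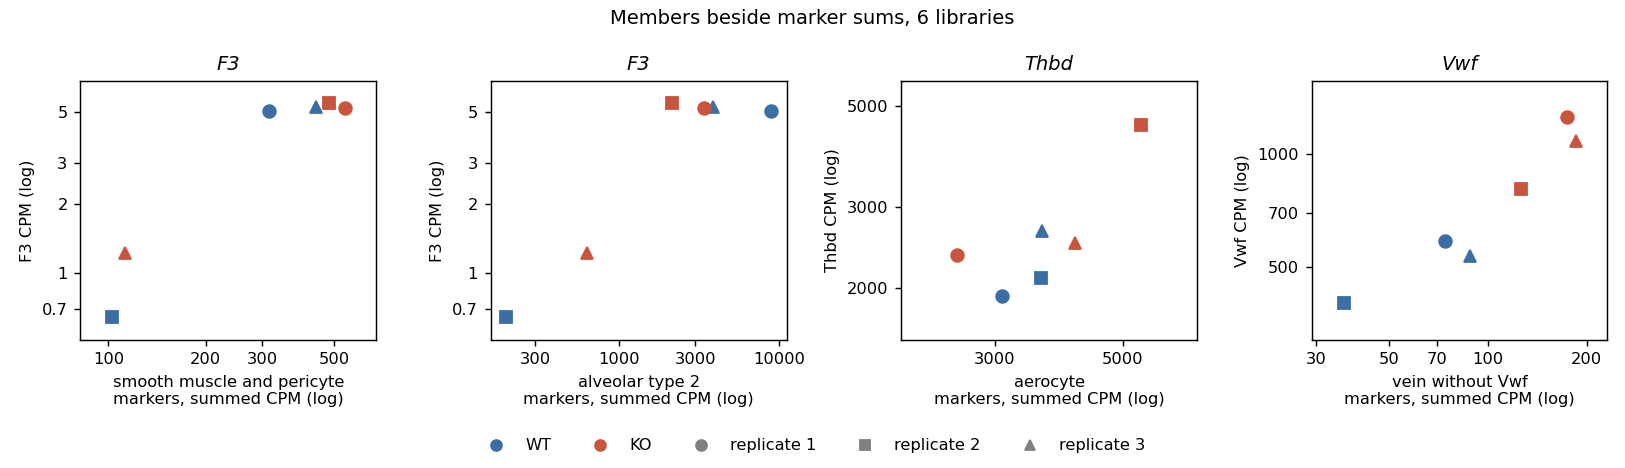
CPM of F3, Thbd and Vwf (vertical, log axis) against the summed CPM of marker genes (horizontal, log axis) in the 6 libraries, blue for the WT and orange for the KO label, with shape giving the replicate number. F3 is low in the 2 libraries with the lowest smooth muscle and alveolar type 2 sums, and Thbd and the aerocyte sum are both highest in KO replicate 2. Vwf and the sum of the other vein markers are both higher under the KO label. Within that sum, Nr2f2 and Selp overlap between the labels.

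Thbd, the thrombomodulin gene (ENSMUSG00000074743, chromosome 2, 148404466 to 148408188, minus strand), led the anticoagulant members. Its level was 1921, 2096 and 2662 CPM under the WT label and 2363, 4546 and 2511 CPM under the KO label. KO replicate 2 stood far above the other 5 libraries, while the remaining libraries labelled KO lay within the WT range. The means were 2226 ± 387 and 3140 ± 1220 CPM (SD, n = 3 each), with a log2 fold change of 0.50 (SE 0.27, 95% interval -0.14 to 1.13, edgeR adjusted p = 0.472). Without KO replicate 2 the log2 fold change was 0.13 and without KO replicate 1 it was 0.66.

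KO replicate 2 was the highest library for other genes as well. The summed CPM of 6 markers of aerocytes, the capillary cells of the alveolar gas exchange surface, was 5373 in KO replicate 2 and 2585 to 4131 in the other libraries, and Pearson's r with Thbd on the log2 scale was 0.78 over the 6 libraries, again as a description. Apln, a marker of that list, was lowest in KO replicate 2, at 112 CPM. The sum of 5 general capillary markers was also highest there, at 5530 CPM against 4275 to 4980 CPM elsewhere (r with Thbd 0.62). Of these markers only Ptprb was itself highest in KO replicate 2, at 2601 CPM, and Aplnr was lowest there, at 707 CPM. Gpihbp1 and Plvap were highest in KO replicate 3 and Kit in WT replicate 2. Hs3st1, which makes the heparan sulfate that binds antithrombin, was at 172 CPM in KO replicate 2 and at 51.8 to 74.6 CPM elsewhere. Ptgs1, a cyclooxygenase on the path to prostacyclin, was at 170 CPM there and at 26.6 to 46.2 CPM elsewhere. Procr and Tfpi, in contrast, had their lowest level in the same library. The part of capillary composition in these values was not tested.

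Procr (ENSMUSG00000027611, chromosome 2, 155751117 to 155755471, plus strand), the receptor that presents protein C to thrombin and thrombomodulin, was at 12.9, 10.2 and 10.3 CPM under the WT label and at 21.1, 6.44 and 29.5 CPM under the KO label. The 3 WT values were close together, and the KO values lay on both sides of them. The log2 fold change was 0.77 (SE 0.48, 95% interval -0.35 to 1.89, edgeR adjusted p = 0.524). Leaving out KO replicate 2 gave 1.18 and leaving out KO replicate 3 gave 0.30, so each of these libraries moved it by more than 1.5 times.

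Tfpi (ENSMUSG00000027082, chromosome 2, 84432855 to 84476775, minus strand), the inhibitor of the tissue factor complex, was the steadiest member, with a within-label SD of 0.15 on the log2 scale. It stood at 60.2, 66.3 and 73.5 CPM under the WT label and 62.9, 51.4 and 53.3 CPM under the KO label. Only KO replicate 1 reached into the WT range. The log2 fold change was -0.26 (SE 0.13, 95% interval -0.56 to 0.04, edgeR adjusted p = 0.441) and ran from -0.36 to -0.18 over the fits that left out 1 library.

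Adamts13 (ENSMUSG00000014852, chromosome 2, 26973416 to 27009628, plus strand), the protease that shortens von Willebrand factor and is known chiefly from liver stellate cells, was detected at 275 to 560 counts per library. It was at 13.3, 16.4 and 13.7 CPM under the WT label and 9.30, 18.5 and 11.2 CPM under the KO label. The highest and the 2 lowest libraries carried the KO label. The log2 fold change was -0.15 (SE 0.27, 95% interval -0.80 to 0.49, edgeR adjusted p = 0.837), and leaving out KO replicate 1 gave 0.03 and leaving out KO replicate 2 gave -0.50.

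Of the plasminogen activators, Plat, which encodes tissue plasminogen activator (ENSMUSG00000031538, chromosome 8, 22757727 to 22782844, plus strand), was far more abundant than Plau. Plat was at 259, 329 and 392 CPM under the WT label and 252, 221 and 289 CPM under the KO label. KO replicate 3 lay above WT replicate 1, so the groups overlapped. The means were 327 ± 66.4 and 254 ± 33.8 CPM (SD, n = 3 each), which is a log2 difference of -0.36 (SE 0.18, 95% interval -0.78 to 0.05, edgeR adjusted p = 0.434). It ran from -0.51 without WT replicate 1 to -0.21 without WT replicate 3.

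Plau, which encodes urokinase (ENSMUSG00000021822, chromosome 14, 20836660 to 20843385, plus strand), had 64, 40 and 56 counts under the WT label and 42, 37 and 39 under the KO label. In CPM these were 1.95, 1.35 and 1.49 against 1.42, 1.22 and 1.32, with overlap between WT replicate 2 and KO replicate 1. The log2 fold change was -0.27 (SE 0.38, 95% interval -1.16 to 0.61, edgeR adjusted p = 0.787). It was -0.11 without WT replicate 1 and ran from -0.38 to -0.11 over the fits that left out 1 library.

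**Figure D3:**
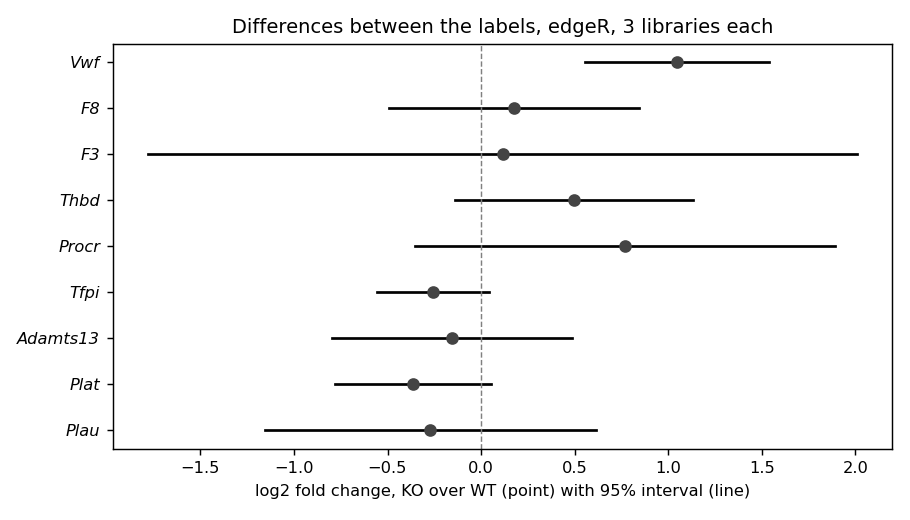
Log2 fold change of each member, libraries labelled KO over those labelled WT (points), with 95% intervals (lines) from edgeR. The interval of Vwf, 0.56 to 1.54, lies above 0 and those of the other 8 members include 0, before adjustment over all genes.

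Set against each other within a library, the members gave 10 ratios of TPM values, chosen after their levels were seen. The TPM of Vwf divided by that of Plat was 0.617, 0.330 and 0.372 under the WT label and 1.36, 0.996 and 1.02 under the KO label. Plat transcripts thus outnumbered Vwf transcripts in every library labelled WT, and the 2 were about level or Vwf was ahead in those labelled KO. The ratio of Thbd to Plat also did not overlap, at 4.24 to 4.92 in the libraries labelled WT and 6.24, 13.7 and 5.78 under the KO label. Both ratios share Plat as their divisor and are not separate results. The other 8 overlapped between the labels.

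Vwf over Adamts13, the substrate against its protease, was 16.8, 9.28 and 14.9 under the WT label and 51.7, 16.7 and 37.1 under the KO label. KO replicate 2 fell just below the highest WT value. Vwf over F8, the carrier against its cargo, was 60.6 to 151 under the WT label and 139 to 232 under the KO label. F3 over Tfpi, the initiator against its inhibitor, stayed below 1 in all 6 libraries, at 0.0143 to 0.127 and 0.0348 to 0.168.

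By role, the 3 procoagulant members Vwf, F8 and F3 summed to 116, 77.2 and 98.0 TPM under the WT label and to 257, 160 and 207 TPM under the KO label, nearly all of it Vwf. They made up 5.76% to 9.36% of the members' TPM under the WT label and 15.4%, 6.47% and 12.6% under the KO label. The 4 members grouped as anticoagulant, Thbd, Procr, Tfpi and Adamts13, took 76.1% to 77.3% under the WT label and 73.5%, 87.3% and 75.2% under the KO label, nearly all of it Thbd. Adamts13 was placed in this group because its protease trims von Willebrand factor. The plasminogen activators took 14.6% to 17.1% under the WT label and 11.1%, 6.28% and 12.2% under the KO label. KO replicate 2 had the largest anticoagulant and the smallest plasminogen activator share of the 6 libraries, and its procoagulant share lay inside the WT range.

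**Figure D4:**
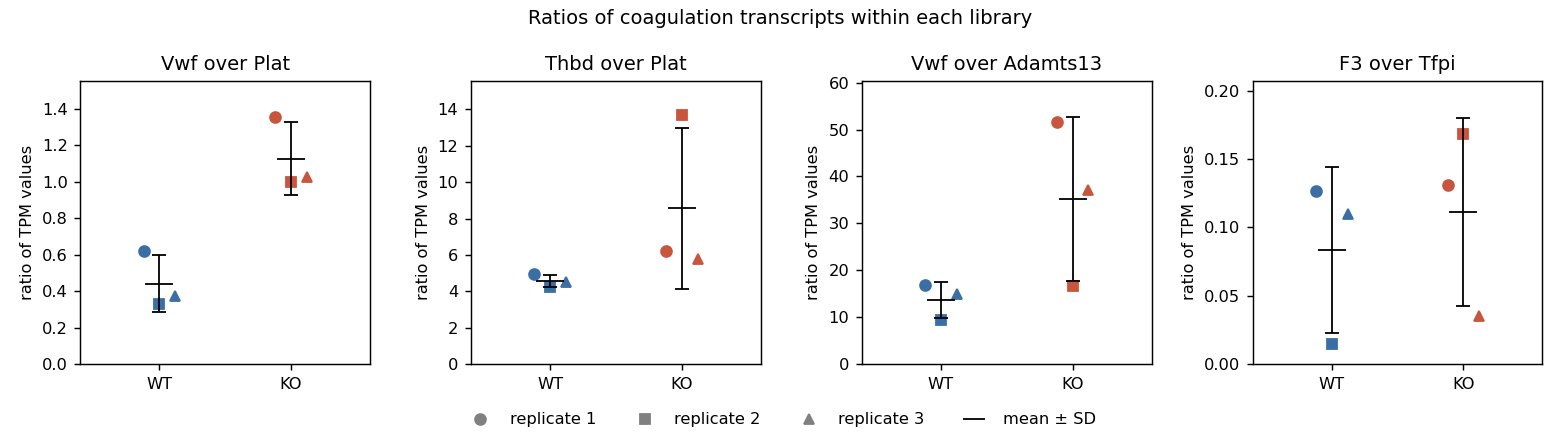
Ratio of TPM values within each library (vertical axes, from 0) for 4 pairs, blue for the WT and orange for the KO label, with shape giving the replicate number and black bars the mean ± SD. Vwf over Plat is 0.330 to 0.617 under the WT label and 0.996 to 1.36 under the KO label, Thbd over Plat is also separated, and the pairs with Adamts13 and Tfpi overlap.

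Vwf was next placed beside markers of vessel types. Of 6 vein markers, which include Vwf, the 5 others summed to 74.0, 36.4 and 88.4 CPM under the WT label and to 174, 126 and 185 CPM under the KO label. Slc6a2, a noradrenaline transporter, carried much of this, at 8.16 to 26.0 CPM under the WT label and 72.5 to 121 CPM under the KO label (edgeR adjusted p = 0.216). Prss23, a secreted protease, was at 3.95 to 4.69 and 12.4 to 13.3 CPM (edgeR adjusted p = 0.0952), whereas Nr2f2, the transcription factor of venous identity, and Selp, the P-selectin gene, overlapped, and Ackr1 was at 0 in 3 libraries. Pearson's r between Vwf and the sum of the 5 was 0.95 on the log2 scale over the 6 libraries, a description of points that share the labels.

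Artery markers summed to 2471 to 3922 CPM under the WT label and 1783 to 2366 CPM under the KO label, where Gja4, an arterial connexin, made up the larger part of the WT sum (log2 fold change -1.26, SE 0.30, edgeR adjusted p = 0.282). The other artery markers went both ways. Sox17 was negative (-0.42), and Hey1 (0.65), Dkk2 (0.42), Bmx (0.24), Efnb2 (0.14) and Gja5 (0.08) were positive. Gja4 and Sox17, lower under the KO label, and Hey1 and Efnb2, higher, did not overlap between the labels. Of all tested genes 20.3% did not overlap, in either direction. Lymphatic markers summed to 357 to 690 and 985 to 1305 CPM, more of it from Lyve1 than from the other markers together, and Prox1, the defining lymphatic factor, stayed at 0.477 to 2.87 CPM. Fibroblast markers summed to 141 to 198 and 289 to 427 CPM, mostly from Col1a1, Col1a2 and Col3a1. These collagen genes and Dcn did not overlap between the labels, again beside 20.3% of all tested genes, whereas Pdgfra and Tcf21 did. Col3a1 passed the edgeR threshold (log2 fold change 1.22, SE 0.11, edgeR adjusted p = 0.0223). Platelets and megakaryocytes also hold Vwf, and 8 of their markers summed to 8.19 to 17.2 and 6.81 to 15.3 CPM, so the labels overlapped. The part of vessel or fibroblast composition in the Vwf values was not tested.

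The 5 genes whose pattern over the 6 libraries lay closest to that of Vwf were Npnt, Fam53a, Trim30d, Nuak1 and Slc52a3, with root mean square differences in centred log2 CPM of 0.152 to 0.176, against a median of 0.632 over the 12221 genes averaging 50 or more counts. Their levels were low beside that of Vwf: Npnt, an integrin ligand of the matrix, was at 4.20 to 6.97 CPM under the WT label and 9.85 to 14.6 CPM under the KO label. Among the other members Procr was the nearest to Vwf by this measure, at 0.587 and rank 4493, and F3 the farthest, at 1.16 and rank 11696. Plau had too low a mean count for this measure.

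The other genes of the clotting system were mostly low in these cells. Of 17 procoagulant factors and cofactors, 7 were abundant enough to test, and 0 passed by edgeR (1 under an unadjusted p of 0.05, 1 called by DESeq2, in both cases Vwf). Over all tested genes the shares were 12.6% under that p and 2.78% by DESeq2. A positive log2 fold change was found for 6 of the 7 (50.9% of all tested genes), with a median of 0.80. F7 and F10 stood at that median (SE 0.62 and 0.44), with intervals that include 0. Counts per library were only 3 to 18 for F2, 6 to 23 for F7 and 12 to 30 for Klkb1. F12 and F13b, factors made in the liver, had no count in any library. F10, the factor that forms thrombin with factor V, was detected at 1.43 to 2.37 CPM under the WT label and 2.10 to 4.85 CPM under the KO label. Of 13 genes grouped as anticoagulant, Adamts13 included, 10 were tested and 0 passed (0 under an unadjusted p of 0.05 and 0 by DESeq2), with 6 positive, 4 negative and a median of 0.24. After Thbd the most abundant was Anxa5, which shields membrane phospholipid from clotting factors, at 406 to 497 and 373 to 396 CPM (log2 fold change -0.20, SE 0.12). Pros1, the cofactor of activated protein C, was at 124 to 136 and 107 to 185 CPM.

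Of 12 fibrinolysis genes, 9 were tested, 6 positive and 3 negative with a median of 0.10, and 0 passed by edgeR (1 under an unadjusted p of 0.05). Of all tested genes 12.6% were under that p, and DESeq2 called 2.78% of those it tested. Anxa2, a plasminogen and tissue plasminogen activator receptor on endothelium, was at 688, 739 and 1129 CPM under the WT label and 544, 421 and 581 CPM under the KO label (log2 fold change -0.73, SE 0.22, edgeR adjusted p = 0.311), and was the 1 gene of this list called by DESeq2 (adjusted p = 0.0385). Plaur, the urokinase receptor, was at 105 to 148 and 132 to 233 CPM. The 4 protease-activated receptors, which besides thrombin receptors include F2rl1, were all tested, 1 positive and 3 negative. Of these, 0 passed by either tool (1 under an unadjusted p of 0.05). F2r, the main thrombin receptor PAR1, was at 105 to 127 CPM under the WT label and 85.4 to 96.9 CPM under the KO label (log2 fold change -0.33, SE 0.11, edgeR adjusted p = 0.339), and F2rl3, PAR4, averaged 8.77 ± 1.97 and 5.26 ± 2.69 CPM (SD, n = 3 each).

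Other contents of Weibel-Palade bodies lay on both sides of 0. Of 11 cargo genes, Vwf included, 10 were tested, 6 positive and 4 negative with a median of 0.32, and 0 passed by edgeR (3 under an unadjusted p of 0.05, 2 called by DESeq2, Vwf higher and Tnfrsf11b lower). Vwf, chosen beforehand, is 1 of the genes in both counts. For this list and the next, the shares over all tested genes were 12.6% under that p and 2.78% by DESeq2. Edn1, the endothelin-1 gene, was at 165, 203 and 641 CPM under the WT label and 142 to 147 CPM under the KO label (log2 fold change -1.22, SE 0.48, edgeR adjusted p = 0.366). Selp and Angpt2, an adhesion molecule and an angiogenic factor of the same granules, differed by 0.00 (SE 0.32) and -0.04 (SE 0.25) on the log2 scale. Of 28 names for granule assembly and exocytosis, 26 genes were tested, 13 positive and 13 negative with a median of 0.06, and 0 passed by edgeR (3 under an unadjusted p of 0.05, 1 called by DESeq2). Vamp3, a vesicle fusion protein, and Ap1m1, an adaptor subunit, the 2 most abundant, differed by -0.26 (SE 0.13) and -0.27 (SE 0.13) on that scale. Myrip, which links Rab27a on the granules to actin, was the gene called by DESeq2 (adjusted p = 0.00409) and was at 0.955 to 1.08 CPM under the WT label and 3.28, 17.4 and 2.34 CPM under the KO label.

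The median log2 fold change was 0.33 over 7 tested genes that restrain platelets, 0.35 over 5 tested clearance receptors of von Willebrand factor and -0.10 over 9 genes for the carboxylation, folding and export of clotting factors, with 0 genes passing by edgeR or DESeq2 in each list (1, 0 and 1 under an unadjusted p of 0.05). Of all tested genes 12.6% were under that p. Nos3, which makes nitric oxide, was at 72.6 to 115 and 104 to 142 CPM, and Entpd1, which degrades ADP, at 122 to 177 and 125 to 183 CPM. Stab1, a scavenger receptor, was at 336 to 545 and 418 to 653 CPM. P4hb and Pdia3, disulfide isomerases of the endoplasmic reticulum, differed by -0.24 (SE 0.14) and 0.17 (SE 0.11) on the log2 scale.

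**Figure D5:**
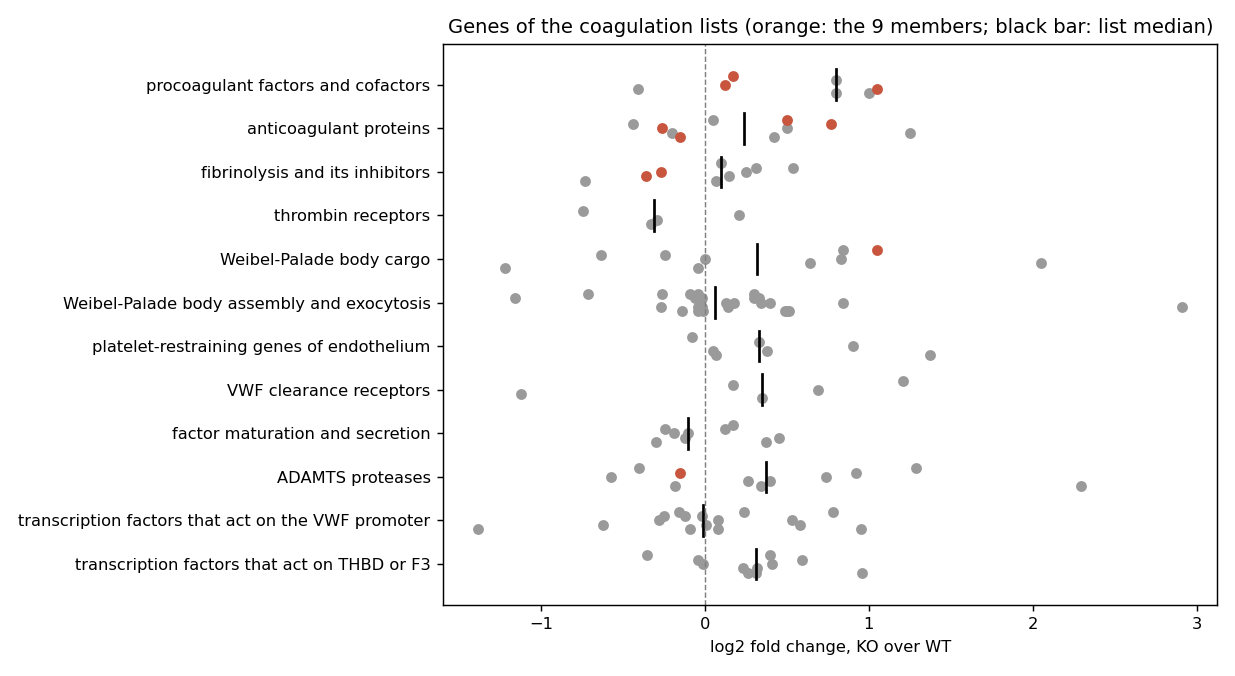
Log2 fold changes, KO over WT label (horizontal), of the tested genes in the 12 gene lists (1 row per list; points are genes, orange for the 9 members, black bars the list medians; Adamts2, at 0 in all libraries labelled WT, is left out of the points). Genes of each list lie on both sides of 0, and Vwf, at 1.05, is farther from 0 than the other 8 members. The row named thrombin receptors holds the 4 protease-activated receptors, F2rl1 included.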

How the data were processed

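Estimated counts per gene, in whole numbers and not normalized, and TPM values were deposited by the authors as 2 tables. Per the submitters' processing notes kallisto and build mm10 were used; no source used here gives its version, the annotation or how transcripts were summed. The TPM columns the authors deposited sum to 875864 to 885609. Symbols and positions came from GENCODE M21 (mm10), which named 24298 of 24520 identifiers.

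Counts were rounded, which changed none, and tested across all genes with edgeR 4.0.16 (quasi-likelihood, TMM, filterByExpr, all 6 libraries, no covariate, R 4.3.3), with Benjamini-Hochberg adjustment over 14667 genes at 0.05 (limma 3.58.1 and DESeq2 1.42.0 in alternatives). SE is the log2 fold change divided by the square root of F. The script was tested on simulated data. At 28136194 to 39999172 counts, 3 counts per library, taken as the floor, equal 0.075 to 0.107 CPM before scaling, a limit that covers counting error only.

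The 9 members and the 12 lists were chosen with earlier results of these data known. Members and Dnmt3a were named, then up to 4 list genes past the threshold or else the 2 highest by mean CPM, and the 5 genes most like Vwf; other genes were named after their values were seen. Some genes that the rule covers are not reported here. Alternatives were other normalizations, filters and tests, the replicate block, the 4 male libraries and leaving out each library. Pairs of libraries with the same label gave chi-square values of 44.8 to 99.2 per degree of freedom, more than counting noise alone gives; technical repeats of amplified libraries could also exceed it, so each library was counted as labelled.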

Additional observations from a re-analysis of the deposited data

How the results depend on the processing

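No alternative called any member but Vwf, and DESeq2 alone called that one: 1 member, with a log2 fold change of 1.04 (adjusted p = 0.000281). Vwf was positive in all 19 alternatives (0.89 to 1.20), and over the fits without 1 library its value ran from 0.89 to 1.20. Signs changed for F8 (-0.04 in the male libraries), F3 (-0.38 without WT replicate 2, -0.13 without KO replicate 1, -0.19 without KO replicate 2) and Adamts13 (0.03 without KO replicate 1); over the fits without 1 library F3 ran from -0.38 to 0.54 and Adamts13 from -0.50 to 0.03, and none of these was called and the cause was not tested. Thbd, Procr, Tfpi, Plat and Plau kept their sign wherever they were tested. The count of genes called, 5 in the reported fit, was 413 by DESeq2, 9 by limma on log2(TPM + 0.1), 0 in the male libraries (1572 under an unadjusted p of 0.05, fewer samples) and 1 to 4 without 1 library: 1 without WT replicate 1, 1 without WT replicate 3, 2 without KO replicate 3 and 3 without KO replicate 1. With the replicate number as a block 0 genes were called (1472 under an unadjusted p of 0.05). Vwf stayed at 1.04, with an SE of 0.12 against 0.21 in the reported fit (edgeR adjusted p = 0.365). Over all tested genes, deviations of same-numbered libraries correlated at 0.28, -0.05 and -0.18, so the numbers were not taken as pairs. Plau rests on 37 to 64 counts a library and F3 on 19 in WT replicate 2; the part of depth in their errors was not tested.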

Other observations

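Transcription factors known to act on the VWF promoter lay on both sides of 0, with 8 of 16 tested genes positive and 8 negative (median log2 fold change -0.01). None passed by edgeR. Under an unadjusted p of 0.05 there were 7 of the 16, where 12.6% of all tested genes were, and DESeq2 called 1 higher and 2 lower, where it called 2.78% of all genes it tested. Ets1, an ETS factor, was at 1271 to 1273 CPM with the WT label, against 775, 980 and 727 CPM under the KO label (log2 fold change -0.62, SE 0.14, edgeR adjusted p = 0.266). Ets2 was at 203 to 214 and 253 to 344 CPM. Gata3 was at 82.6 to 119 CPM under the WT label and 55.8, 27.6 and 27.4 CPM under the KO label (log2 fold change -1.38, SE 0.30, edgeR adjusted p = 0.248), while its relative Gata2 was at 237 to 287 and 283, 635 and 409 CPM and overlapped. Erg differed by 0.08 (SE 0.13) and Nfib by -0.02 (SE 0.11) on the log2 scale.

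Of 11 factors known to act on THBD or F3, 8 were positive with a median of 0.31, and 0 passed by edgeR (3 under an unadjusted p of 0.05, 2 higher by DESeq2). Over all tested genes the shares were 12.6% under that p and 2.78% by DESeq2, in either direction. Klf4 and Klf2, which raise thrombomodulin in endothelium, were at 400 to 610 and 536 to 813 CPM and at 169 to 180 and 175 to 311 CPM. Fos, a partner in AP-1, was at 235 to 483 and 398 to 521 CPM and overlapped. Jun, also of AP-1, did not overlap, at 210 to 239 and 270 to 384 CPM (log2 fold change 0.59, SE 0.15, edgeR adjusted p = 0.282, DESeq2 adjusted p = 0.0281). Egr1, a factor known to act on F3, was at 114 to 169 and 231 to 364 CPM (log2 fold change 0.96, SE 0.22, edgeR adjusted p = 0.266). F3 overlapped between the labels with a wide error (SE 0.81), and a link between Egr1 and F3 was not tested.

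Among 12 ADAMTS proteases 8 were positive and 4 negative, with a median of 0.37, the same with Adamts2 at its bound, and 0 passed by edgeR (3 under an unadjusted p of 0.05, 1 higher by DESeq2). Over all tested genes the shares were 12.6% under that p and 2.78% by DESeq2, in either direction. Adamts2, which trims procollagen, had no count in the libraries labelled WT and 25, 50 and 13 counts under the KO label, at least 10.8-fold higher against a floor of 3 counts per library. Adamts1 and Adamts10, the 2 most abundant, were at 592 to 798 and 477 to 703 CPM and at 134 to 173 and 192 to 227 CPM.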
